A study of Mus musculus with 6 samples.

Results

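Reads of immunoglobulin variable (V) segments were followed in RNA sequencing of sorted mouse CD8 T cells with and without the glucose-sensing transcription factor MondoA, encoded by Mlxip. The members were the genes whose mouse symbol begins with Ighv, Igkv or Iglv and that had at least 10 reads summed over the 6 libraries. The table held 348 such segments among 57010 genes, 206 of them had at least 1 read, and 167 met the rule: 85 heavy, 80 kappa and 2 lambda segments. The members were chosen by their summed reads, so their presence here is a description and not a result. At the edge of the rule, Igkv4-54 and Igkv7-33 entered with 10 reads each, and Igkv10-95 stayed out with 9.

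Naive CD8 T cells were sorted from lymph nodes and spleens of C57BL/6 mice (8 weeks of age), and antibodies to CD3 and CD28 activated them for 24 hours. The 3 WT libraries came from MondoAfl/fl mice, a genotype that carries the floxed gene and names no Cre. The sample titles of both groups nevertheless hold the word cre. The 3 KO libraries came from MondoAfl/flCD4cre mice, in which a transgene under CD4 control drives Cre in developing T cells. By these genotypes both groups carry the floxed alleles and Cre is present in KO alone. Effects of Cre and of MondoA loss therefore cannot be told apart, and B cells are not a target of this transgene by its design. The labels number the replicates without naming a mouse for each, so p-values measure only how these samples scatter, which may be technical.

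An antibody is built from heavy chains and from kappa or lambda light chains. In each developing B cell a V segment is joined by DNA recombination to a joining segment, with a diversity segment between them in the heavy chain, and the joined exon is then spliced to a constant region. A B cell thus transcribes mainly its own rearranged V segments, and a plasma cell, the antibody-secreting end stage, transcribes them at very high levels. Alpha-beta T cells rearrange their own receptor V segments in place of these, so immunoglobulin V transcripts are a common sign of B-lineage RNA in a T cell sample.

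The V segments form multigene families of near copies, which bears on how reads are assigned to each. The last 300 bases of the transcript model of every segment, which hold most of the V exon, were read from GENCODE M21 (GRCm38) for all 167 members. The closest other segment of the same chain shared a median of 95.3% of these bases, and 95 members had a neighbour at 95% identity or more. The longest exact run shared with another segment had a median of 83 bases and reached 150 bases in 11 members. Reads inside such runs cannot be assigned to a single segment, so single-segment counts are uncertain where a near copy exists, while sums over a chain are less exposed. The heavy locus lies on chromosome 12, the kappa locus on chromosome 6 and the lambda locus on chromosome 16.

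The pairs below are shown 5′ to 3′ in the sense of the gene because they carry the most abundant lambda and kappa reads and the lowest KO to WT ratio among tested segments. Capitals mark the bases at which the members of a pair differ. Iglv1 and Iglv2 (minus strand) differ at 8 of 300 bases, Igkv1-110 and Igkv1-117 (plus strand) at 10, and Igkv6-13 and Igkv6-14 (minus strand) at 19.
Iglv1: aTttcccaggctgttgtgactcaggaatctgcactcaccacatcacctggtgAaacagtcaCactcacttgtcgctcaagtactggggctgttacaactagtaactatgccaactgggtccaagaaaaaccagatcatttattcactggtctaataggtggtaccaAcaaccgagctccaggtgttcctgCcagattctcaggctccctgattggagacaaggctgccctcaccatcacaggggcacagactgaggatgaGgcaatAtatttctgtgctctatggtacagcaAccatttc
Iglv2: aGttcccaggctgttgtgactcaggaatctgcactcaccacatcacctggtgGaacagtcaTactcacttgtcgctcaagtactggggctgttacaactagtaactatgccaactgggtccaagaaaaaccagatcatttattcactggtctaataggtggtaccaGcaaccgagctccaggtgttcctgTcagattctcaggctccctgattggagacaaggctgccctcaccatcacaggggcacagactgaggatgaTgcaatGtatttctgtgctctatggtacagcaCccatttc
Igkv1-110: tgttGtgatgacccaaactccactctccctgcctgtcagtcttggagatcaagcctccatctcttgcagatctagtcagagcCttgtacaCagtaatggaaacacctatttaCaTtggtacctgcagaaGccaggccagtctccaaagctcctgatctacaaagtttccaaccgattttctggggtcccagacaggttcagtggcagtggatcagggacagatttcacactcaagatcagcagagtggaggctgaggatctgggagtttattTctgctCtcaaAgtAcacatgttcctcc
Igkv1-117: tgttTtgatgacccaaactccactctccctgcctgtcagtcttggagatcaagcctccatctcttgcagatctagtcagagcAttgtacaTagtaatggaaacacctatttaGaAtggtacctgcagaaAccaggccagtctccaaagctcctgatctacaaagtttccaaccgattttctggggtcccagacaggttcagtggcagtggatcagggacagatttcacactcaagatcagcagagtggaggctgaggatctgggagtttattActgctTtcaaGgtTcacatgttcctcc
Igkv6-13: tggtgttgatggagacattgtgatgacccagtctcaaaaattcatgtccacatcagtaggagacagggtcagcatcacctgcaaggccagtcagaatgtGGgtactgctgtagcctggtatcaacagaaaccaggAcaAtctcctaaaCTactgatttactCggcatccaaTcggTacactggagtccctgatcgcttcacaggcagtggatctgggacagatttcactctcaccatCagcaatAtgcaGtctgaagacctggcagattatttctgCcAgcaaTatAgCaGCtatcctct
Igkv6-14: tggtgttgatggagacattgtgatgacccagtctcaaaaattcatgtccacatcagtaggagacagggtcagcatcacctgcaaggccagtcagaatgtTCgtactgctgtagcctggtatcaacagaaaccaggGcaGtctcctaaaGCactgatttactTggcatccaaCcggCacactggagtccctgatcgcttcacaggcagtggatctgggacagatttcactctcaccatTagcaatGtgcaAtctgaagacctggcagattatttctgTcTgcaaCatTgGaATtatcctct

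A feature that the rule did not use was the letters TATTNCTG close to the 3′ end. The letters were chosen after the sequences were read, with N for any base. In the usual reading frame of a V segment they spell a tyrosine, often followed by a tyrosine or phenylalanine, and the start of the conserved cysteine codon before the third hypervariable loop. They were found on the sense strand in 141 of the 167 members (84.4%) and in 90 of the 181 segments that were not members (49.7%). Of those 181 segments, 41 had a model shorter than 300 bases. Pseudogenes were not separated from other segments on either side, and their part in the gap between these shares was not tested. On the opposite strand the letters were found in 8 members and 2 of the other segments. The last match in each of these members lay between 14 and 64 bases from the 3′ end, counted from its first letter. The most abundant heavy segment, Ighv1-81, and Ighv5-17, the heavy segment of smallest p in the KO to WT comparison (both minus strand), are printed with the match in capitals.
Ighv1-81: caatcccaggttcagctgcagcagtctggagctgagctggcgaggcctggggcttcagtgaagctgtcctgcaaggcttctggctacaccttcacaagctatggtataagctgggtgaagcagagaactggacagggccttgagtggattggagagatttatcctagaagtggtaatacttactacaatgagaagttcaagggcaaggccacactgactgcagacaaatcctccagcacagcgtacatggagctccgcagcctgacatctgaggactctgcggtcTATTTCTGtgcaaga
Ighv5-17: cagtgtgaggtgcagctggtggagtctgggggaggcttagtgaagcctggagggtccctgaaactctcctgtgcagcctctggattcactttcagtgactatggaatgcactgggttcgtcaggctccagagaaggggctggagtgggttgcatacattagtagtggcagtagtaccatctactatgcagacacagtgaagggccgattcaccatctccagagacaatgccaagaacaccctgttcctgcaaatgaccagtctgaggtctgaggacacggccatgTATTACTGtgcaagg

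The libraries held between 26150420 and 34447230 gene counts. Mlxip, the check of the labels, stood at 124, 121 and 141 CPM (counts relative to library size, with TMM scaling between libraries) across WT 1 to 3 and at 79.5, 92.5 and 85.9 CPM across KO 1 to 3, so the groups did not overlap, although its edgeR Benjamini-Hochberg adjusted p was 0.125. Its target Txnip averaged 221 CPM in WT and 76.6 CPM in KO, with an edgeR adjusted p of 3.85e-05. The 8 CD8 T cell genes examined, among them Cd8a and Cd3e, together gave between 1963 and 2601 CPM in each library. Their sum averaged 2113 CPM in WT and 2383 CPM in KO, and the groups overlapped. Of the 8, 0 had the lower mean in KO, against 54.2% of genes with at least 10 reads. Every KO library was above every WT library for 3 of them, against 6.72% of those genes, and edgeR called 0.

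Immunoglobulin V reads were found in all 6 libraries at a low level, and the KO group held fewer of them with 1 library as an exception. WT 1, 2 and 3 held 5760, 3625 and 4381 V reads, which is 0.0169%, 0.0113% and 0.0168% of their counts. KO 1, 2 and 3 held 4286, 2336 and 1987 V reads, which is 0.0134%, 0.00690% and 0.00577%. The exact 95% binomial intervals ran from 0.0165% to 0.0174% in WT 1 and from 0.00552% to 0.00603% in KO 3. They cover counting error only and take each count as an independent draw. KO 2 and KO 3 lay below every WT library, whereas KO 1 lay above WT 2, so the groups overlapped.

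On the TMM scale the V segments summed to 165, 112 and 161 CPM across WT 1 to 3 and to 138, 71.2 and 58.1 CPM across KO 1 to 3. The means were 146 ± 29.2 CPM in WT and 89.0 ± 42.7 CPM in KO (mean ± SD of 3 libraries), a log2 ratio of KO to WT of -0.72. Without KO 1 this log2 ratio was -1.18, and without KO 3 it was -0.48. No p is given for this sum, because the members were chosen with earlier results in view. In bulk RNA, fewer cells of a type and less RNA per cell cannot be told apart.

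**Figure D1:**
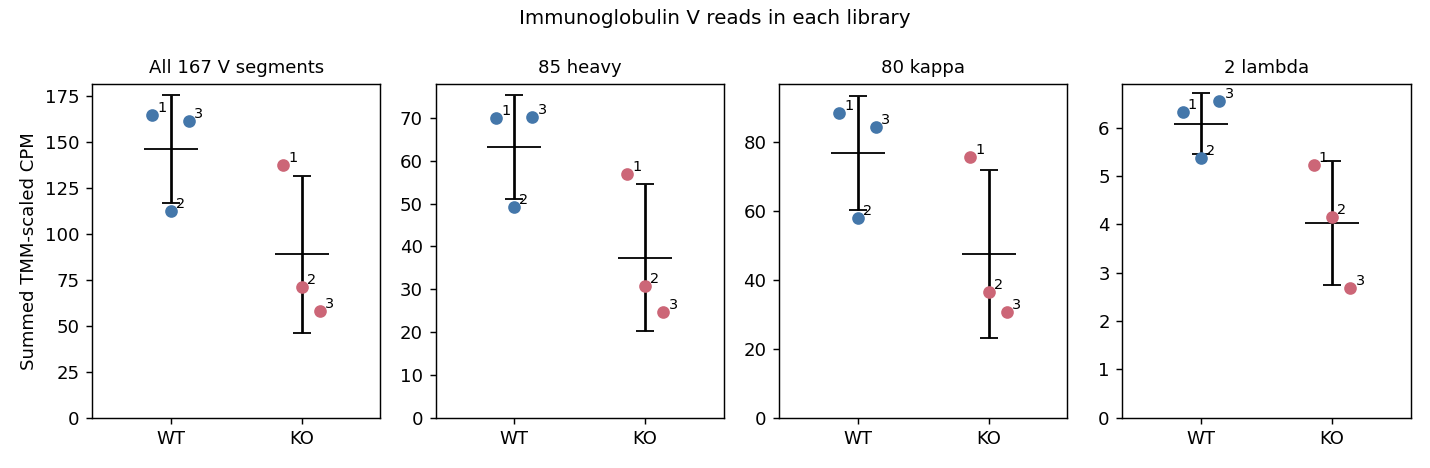
Summed TMM-scaled CPM (y axis) of all 167 V segments and of the heavy, kappa and lambda segments in each library, with the replicate number beside each point. Horizontal marks are group means and bars are SD of 3 libraries. KO 1, at 138 CPM over all segments, lies among the WT libraries, and KO 2 and KO 3, at 71.2 and 58.1 CPM, lie below them.

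Kappa reads outnumbered heavy reads, and heavy reads outnumbered lambda reads, in every library. Heavy segments took 42.5%, 43.7% and 43.6% of V reads across WT 1 to 3 and 41.3%, 43.0% and 42.4% across KO 1 to 3. Kappa segments took 53.7%, 51.5% and 52.3% in WT and 54.9%, 51.2% and 52.9% in KO. Lambda segments took 3.84%, 4.77% and 4.06% in WT and 3.80%, 5.82% and 4.63% in KO. For each chain the groups overlapped. The heavy share averaged 43.3% ± 0.684 in WT against 42.2% ± 0.889 in KO, a gap above either SD, with KO 2 above WT 1. The kappa means were 52.5% and 53.0% and the lambda means 4.22% and 4.75%, gaps that did not exceed the KO SD of 1.88 and 1.01 points.

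Kappa is the dominant light chain in the mouse, and it was so in these reads. Lambda made up 6.67%, 8.48% and 7.20% of light-chain V reads across WT 1 to 3. In KO 1 to 3 it made up 6.48%, 10.2% and 8.04%. KO 2 was the highest of the 6, with an exact 95% binomial interval from 8.64% to 11.97% that covers counting error only. Light-chain V reads outnumbered heavy V reads in every library, by between 1.29 and 1.42 to 1.

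In CPM, the lambda sum was the only chain sum whose groups did not overlap. It stood at 6.32, 5.37 and 6.56 CPM across WT 1 to 3 and at 5.24, 4.15 and 2.69 CPM across KO 1 to 3, with KO 1 just below WT 2. Heavy segments summed to 63.2 ± 12.1 CPM in WT and 37.4 ± 17.1 CPM in KO, and kappa segments to 77.0 ± 16.6 CPM in WT and 47.6 ± 24.4 CPM in KO (mean ± SD of 3 libraries).

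The reads were spread over many segments and were not dominated by a few. The numbers of members with a read were 154, 143 and 155 across WT 1 to 3 and 151, 135 and 133 across KO 1 to 3. Thinned to the smallest V total, that of KO 3, the expected numbers were 142, 138 and 146 in WT and 141, 134 and 133 in KO, and the groups overlapped. A total of 105 members had reads in all 6 libraries and 3 in a single library.

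The effective number of segments, the number of equally used segments that would give the same Shannon entropy, was 90.1, 87.4 and 91.4 across WT 1 to 3. It was 85.7, 85.5 and 80.1 across KO 1 to 3, below every WT library, and it was not corrected for the lower V totals of KO 2 and KO 3. For comparison within the same libraries, the 101 T cell receptor alpha and beta V segments with at least 10 reads had an effective number between 33.9 and 37.0. The leading V segment held between 3.81% (Iglv1 in KO 2) and 6.49% (Igkv1-117 in KO 3) of a library's immunoglobulin V reads. Over all libraries the 10 segments with most reads held 27.6% of them and the 20 with most reads 41.2%.

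Families were used unequally, with the large Ighv1 family ahead. Ighv1 gave 44 of the 85 heavy members and 54.3% of heavy V reads, from 46.6% in WT 2 to 56.9% in WT 3. Ighv5 followed with 9.27% and Ighv3 with 6.65%. Among kappa segments Igkv1 held 19.7% of reads with 6 members, Igkv4 13.9% with 22 members, Igkv6 12.04% with 8 and Igkv8 11.1% with 6. Some families moved between libraries: Ighv14 took 11.7% of heavy V reads in WT 2 and at most 6.75% in the others, and Ighv2 took 12.1% in KO 2 and at most 5.60% in the others.

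Beyond these sums, the sets of segments overlapped only in part from library to library. Any 2 libraries shared between 62.0% and 70.6% of their V composition, the sum over segments of the smaller of both shares. Pairs within a genotype shared 62.3% to 70.6% (6 pairs) and pairs across genotypes 62.0% to 70.6% (9 pairs), so likeness did not follow genotype in these ranges. Spearman's rho of the shares over the 167 segments lay between 0.500 and 0.637 within a genotype and between 0.501 and 0.612 across. These are descriptions over segments that share a library, with no test.

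The most abundant members were light-chain segments. Per kilobase of annotated exon, mean levels over the 6 libraries ran from 0.155 to 12.4 CPM per kilobase with a median of 1.19, and Igkv1-110 stood highest. Its CPM were 8.38, 4.38 and 6.74 across WT 1 to 3 and 5.24, 2.41 and 2.63 across KO 1 to 3. KO 1 lay above WT 2 and the groups overlapped. Its near copy Igkv1-117, printed above, had 3.89, 5.34 and 5.27 CPM in WT and 2.92, 2.501 and 3.77 CPM in KO, with all 3 KO libraries below WT.

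Igkv8-30 and Igkv10-96, at 10.4 and 10.03 CPM per kilobase, followed and did not share this order. Igkv8-30 was at 3.49, 2.73 and 4.68 CPM in WT and at 7.62, 1.95 and 2.40 CPM in KO, so KO 1 was the highest of all 6 libraries. Igkv10-96 was at 6.95, 1.15 and 6.08 CPM in WT and at 3.95, 1.22 and 2.25 CPM in KO, with WT 2 the lowest. Igkv1-135 was at 6.86, 3.41 and 2.87 CPM in WT and at 2.63, 0.854 and 0.760 CPM in KO, and the KO libraries all lay below WT. Among lambda segments Iglv1 had 4.38, 4.22 and 5.30 CPM in WT and 4.27, 2.71 and 2.19 CPM in KO. Iglv2 had 24.2% of lambda V reads against 75.8% for Iglv1, and their groups overlapped in both.

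Among heavy segments Ighv1-81 led with 7.54 CPM per kilobase, ahead of Ighv3-6 with 6.47 and Ighv1-26 with 6.37. Ighv1-81 was at 4.52, 1.43 and 3.57 CPM across WT 1 to 3 and at 2.47, 2.26 and 1.64 CPM across KO 1 to 3. Ighv3-6 was at 3.17, 1.92 and 3.09 CPM in WT and at 3.34, 0.884 and 1.17 CPM in KO. For both the groups overlapped, through the low WT 2 in the first and the high KO 1 in the second. Ighv1-26 averaged 2.99 ± 1.48 CPM in WT and 1.48 ± 1.36 CPM in KO, Ighv1-55 2.23 ± 0.722 and 1.24 ± 0.899 CPM, and Ighv1-76 1.36 ± 0.916 and 1.91 ± 1.48 CPM (mean ± SD of 3 libraries). Ighv1-76 was the only one of these 5 heavy segments with the higher mean in KO, and without KO 1 its log2 fold change turned from 0.47 to -0.32.

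Segment by segment, most members stood lower in KO and none passed the test over all genes. The mean CPM was lower in KO for 136 of the 167 members (81.4%), 67 of 85 heavy, 67 of 80 kappa and both lambda segments, against 54.2% of the 22030 genes with at least 10 reads. The median log2 ratio of KO to WT over the members was -0.83, with a group without any read set to 3 reads over the group (5 members without a KO read and 2 without a WT read). Over all genes with at least 10 reads it was -0.034 on the same scale. The members of a library share its V total, so these counts are not independent of the sums given above.

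Every KO library was below every WT library for 25 of the 167 members (14.97%), against 8.16% of genes with at least 10 reads. Every KO library was above every WT library for 3 members (1.80%), Ighv1-58, Ighv9-4 and Igkv4-90, against 6.72% of those genes. The filter on low counts passed 102 of the 167 members into the test, 48 heavy, 52 kappa and both lambda segments. A member can pass that filter through the group in which it is high, so counts over the tested members are a description: 14 of them had KO below WT in every library and 1 had it above, against 8.63% and 7.81% of all genes tested. Among the 102, edgeR's quasi-likelihood test, adjusted by Benjamini-Hochberg over 16439 genes, called 0, against 0.0122% of all genes tested, and the smallest adjusted p was 0.0961. At an unadjusted p under 0.05 there were 17 lower in KO and 0 higher, against 5.77% and 5.05% of all genes tested. DESeq2 called 1 member, Igkv1-135, lower in KO and 0 higher, against 0.476% and 0.731% of genes, and gave no adjusted p for 151 of the 167. When low counts were not filtered out, edgeR called 18 members lower and 1 higher, against 0.914% and 0.842% of genes.

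**Figure D2:**
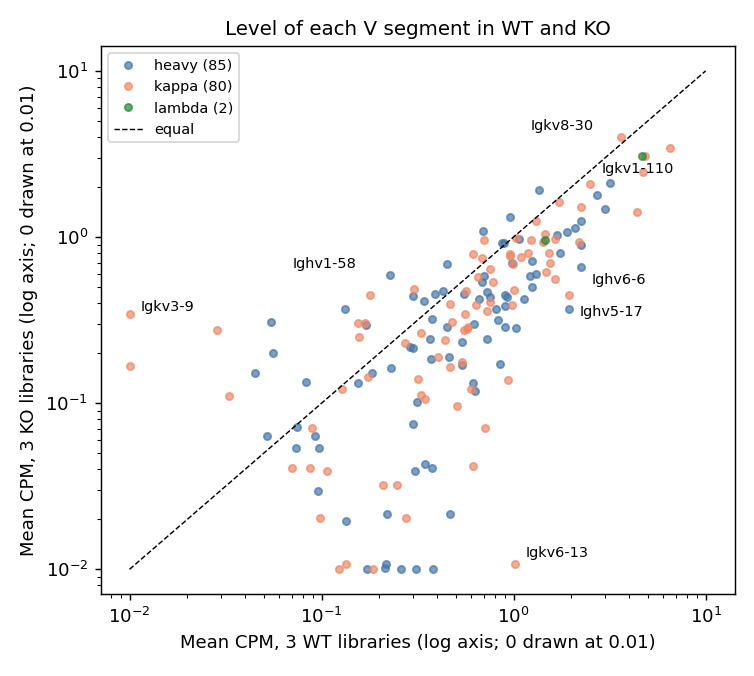
Mean CPM of each of the 167 V segments in the 3 WT libraries (x axis) and the 3 KO libraries (y axis), both on log axes with 0 drawn at 0.01, and the dashed line where both are equal. Most points, 136 of 167, lie below the line, Igkv6-13 lies farthest below it among the tested segments, and Igkv8-30, the second highest per kilobase, lies just above it.

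The segment of smallest p was Igkv6-13, which was nearly absent from the KO libraries. It had 56, 25 and 18 reads across WT 1 to 3 and 1, 0 and 0 reads across KO 1 to 3, so the groups were far apart. Over the groups, 99 reads against 1 give a WT to KO ratio of 103 per scaled read, with an exact 95% counting interval from 18.1 to 4110 that holds none of the spread between samples. Its edgeR adjusted p was 0.0961 and ran from 7.29e-09 without a filter on low counts to 0.535 without WT 1. Without KO 3 it was 0.0496. Igkv6-13 passed the count filter through the WT libraries alone, so these p-values are a description and no support. The most similar segment to Igkv6-13 was Igkv6-23 at 96.0% identity, with 42, 36 and 78 reads in WT and 69, 77 and 10 in KO. Igkv6-14, printed beside Igkv6-13 and named after its values were seen, had 32, 24 and 5 reads in WT and 2, 2 and 0 in KO.

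Ighv5-17 and Ighv6-6 came next. Ighv5-17 was at 1.92, 2.27 and 1.66 CPM across WT 1 to 3 and at 0.482, 0.396 and 0.234 CPM across KO 1 to 3, or a log2 fold change of -2.39 (standard error, SE, 0.380). All WT libraries, but not all KO libraries, met the minimum of the count filter. Its edgeR adjusted p was 0.125 and ran from 1.33e-05 without a filter to 0.617 without WT 1. Ighv6-6 was at 2.40, 1.09 and 3.20 CPM in WT and at 0.803, 0.701 and 0.468 CPM in KO, or a log2 fold change of -1.76 (SE 0.434), with an edgeR adjusted p of 0.330 that ran from 0.00089 without a filter to 0.847 without WT 1. In both segments every KO library lay below every WT library, KO 1 included. Of the kappa segments above, Igkv1-135 had a log2 fold change of -1.64 (SE 0.488) and an edgeR adjusted p of 0.354. Its adjusted p was 0.0350 with DESeq2 and ran from 2.69e-06 in edgeR without a filter to 0.847 without WT 1. Among members without any KO read, Ighv1-5, named after its values were seen, had 37 reads in WT.

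On the other side, the tested members of smallest p with higher values in KO were Ighv1-58, Igkv4-61 and Ighv3-1. Ighv1-58 had 16, 0 and 6 reads in WT and 18, 24 and 16 in KO, or a log2 fold change of 1.36 (SE 0.805) with an edgeR adjusted p of 0.553. All KO libraries met the minimum of the count filter, but in WT only WT 1 did, so these values of Ighv1-58 are a description. Igkv4-61 had 2, 13 and 2 reads in WT and 20, 21 and 2 in KO, and Ighv3-1 had 28, 6 and 10 in WT and 17, 19 and 32 in KO. In the last 2 the groups overlapped.

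Several members came mainly from a single library. Among those with at least 50 reads, WT 3 held 79.1% of the summed CPM of Igkv14-126, with 39 of its 51 reads, and 67.4% of that of Ighv14-4, with 41 of its 65 reads. WT 2 held 66.8% of that of Ighv14-1, with 48 of its 73 reads. Igkv3-9 had 32 reads in KO 1 and none elsewhere, and Ighv1-49 had 18 in WT 1 and none elsewhere. Igkv7-33 had its 10 reads in WT 3, and these were the 3 members seen in 1 library, of which the first 2 were named after their values were seen. Such single-library segments occurred in both genotypes.

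Replicates of a genotype differed more for V segments than for other genes of like read number. For members with 50 to 99 reads the median coefficient of variation within a genotype (SD over mean CPM, averaged over WT and KO) was 79.6% (38 segments), against 46.9% for 1821 other genes. At 400 to 949 reads it was 51.6% (10 segments), against 18.8% for 1696 other genes. T cell receptor V segments in the same ranges were at 44.7% (19 segments) and 15% (12 segments). The V segments of a library share its V total, which itself varied, at 146 ± 29.2 CPM in WT and 89.0 ± 42.7 CPM in KO. The medians therefore do not separate spread common to all V segments from spread of single segments. They are descriptions without a test.

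**Figure D3:**
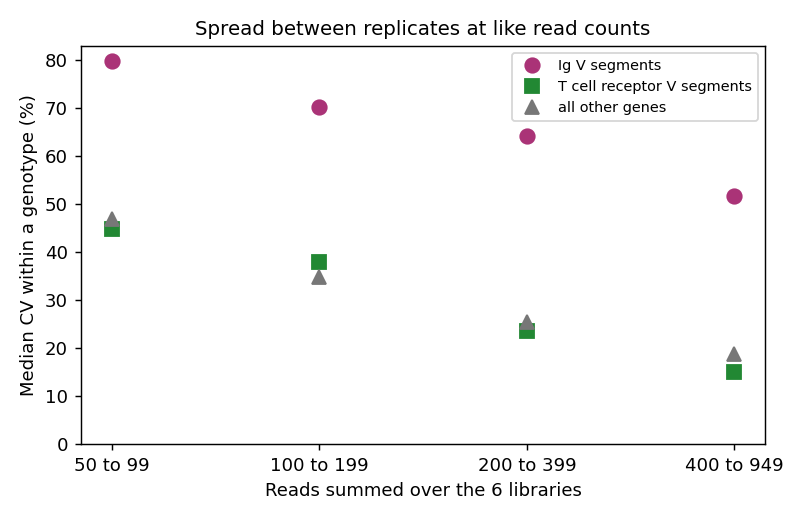
Median coefficient of variation of CPM within a genotype (y axis, percent) for immunoglobulin V segments, T cell receptor V segments and all other genes, by reads summed over the 6 libraries (x axis). Immunoglobulin V segments stand highest in every range, from 79.6% at 50 to 99 reads to 51.6% at 400 to 949 reads.

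Constant-region genes, to which the V exons are spliced, were present beside them. Igkc, the kappa constant gene, was at 69.3, 44.7 and 83.4 CPM across WT 1 to 3 and at 55.5, 38.5 and 28.1 CPM across KO 1 to 3. KO 1 lay above WT 2 here as in the V sum. There were between 0.945 and 1.36 kappa V reads for each Igkc read. Igha, the constant gene of IgA, was at 94.96, 62.5 and 88.2 CPM in WT and at 78.7, 54.9 and 42.5 CPM in KO, with the same order within the KO group.

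Ighm, the constant gene of IgM, did not follow the V reads. It was at 217, 195 and 299 CPM in WT and at 222, 245 and 207 CPM in KO, or a log2 fold change of -0.076 with an edgeR adjusted p of 0.869. It held 61.6%, 68.4% and 69.1% of heavy constant reads across WT 1 to 3 and 67.4%, 74.98% and 77.1% across KO 1 to 3. Heavy V reads per Ighm read were 0.322, 0.251 and 0.236 in WT and 0.256, 0.125 and 0.119 in KO, so KO 2 and KO 3 were again the lowest. Per read of the other heavy constant genes they were 0.516, 0.544 and 0.527 in WT and 0.529, 0.374 and 0.400 in KO.

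The switched IgG genes were scarce and lower in KO in sum. Ighg1, Ighg2b, Ighg2c and Ighg3 together gave 17.9, 13.9 and 26.8 CPM in WT and 13.1, 9.06 and 9.24 CPM in KO, and the groups did not overlap. Ighg1 had the smallest p among them, at 0.887, 1.24 and 4.27 CPM in WT and 0.289, 0.518 and 0.234 CPM in KO, with an edgeR adjusted p of 0.330. Ighg2b averaged 8.71 CPM in WT and 5.76 CPM in KO, Ighg2c 6.17 and 3.42 CPM, and Ighg3 2.501 and 0.929 CPM. Ighd, the IgD gene, was at 18.4 ± 4.30 CPM in WT and 14.4 ± 3.95 CPM in KO (mean ± SD of 3 libraries). Ighe, the IgE gene, had 13 reads in KO 2 and none elsewhere. Iglc1, Iglc2 and Iglc3 together held between 46 and 126 reads per library. Of the 12 constant genes 11 had the lower mean in KO, against 54.2% of genes with at least 10 reads. Of the 11 tested edgeR called 0, with 4 lower and 0 higher at an unadjusted p under 0.05, against 5.77% and 5.05% of all genes tested. DESeq2 called 0 and gave no adjusted p for 5, and edgeR without a filter called 5 lower, against 0.914% of genes.

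Joining and diversity segments, which are short, gave few reads. Heavy joining segments held between 48 and 90 reads per library, kappa joining segments between 12 and 41, and heavy diversity segments between 8 and 29. The highest heavy joining count, 90, was in KO 3, the library with fewest V reads.

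Jchain, which encodes the chain that links IgA and IgM units, tracked the V sum closely. It was at 21.7, 17.3 and 19.96 CPM across WT 1 to 3 and at 19.3, 9.76 and 8.13 CPM across KO 1 to 3. Across the 6 libraries the Pearson correlation of its log2 CPM with the log2 V sum was 0.987, rank 2 among the 9801 genes averaging 5 CPM or more. Lage3 (0.994), Tbccd1 (0.979), Tdp2 (0.974) and Chid1 (0.971) completed the first 5. Lage3 ran only from 5.90 CPM in KO 3 to 8.41 CPM in WT 1. With 6 libraries and 9801 genes such values are a description and carry no test.

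Other plasma cell genes were low or not particular to that cell. Sdc1, the plasma cell surface proteoglycan, averaged 1.31 CPM in WT and 1.06 CPM in KO, and Mzb1, a chaperone of antibody assembly, 0.479 and 0.402 CPM. Tnfrsf17, the survival receptor of plasma cells, had 3, 4 and 6 reads in WT and 0, 2 and 0 in KO. Xbp1 and Prdm1, regulators also used by activated T cells, averaged 79.8 and 5.95 CPM in WT and 88.2 and 5.12 CPM in KO. The plasma cell list of 11 genes summed to between 310 and 384 CPM in WT and between 287 and 387 CPM in KO. Of its 10 tested genes edgeR called 0, with 1 (Jchain) lower and 0 higher at an unadjusted p under 0.05, against 5.77% and 5.05% of all genes tested. DESeq2 called 0 and gave no adjusted p for 5. Without a filter edgeR called 1, Jchain, lower (adjusted p = 0.0018), against 0.914% of genes.

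B cell genes were detected in all 6 libraries and shared part of the order of the V sum. The 6 defining genes Ms4a1, Cd79a, Cd79b, Pax5, Ebf1 and Cd22 summed to 64.0, 51.2 and 83.5 CPM across WT 1 to 3 and to 62.98, 52.3 and 27.3 CPM across KO 1 to 3, and none was at 0 in any library. KO 3 was the lowest in both sums, while KO 2, low in V reads, lay just above WT 2 here. There were between 1.36 (KO 2) and 2.57 (WT 1) V reads for each read of these 6 genes. Per kilobase, Ms4a1, which encodes CD20, was set against Cd3e, a chain of the T cell receptor complex. Ms4a1 was at 5.24%, 4.32% and 5.93% of Cd3e in WT and at 5.19%, 3.67% and 1.66% in KO. These percentages depend on the gene chosen. Ms4a1 was at 2.44, 2.17 and 2.88 CPM per kilobase in WT and at 2.78, 1.90 and 0.912 in KO. Cd79a was higher, at 10.99, 8.31 and 16.5 CPM per kilobase in WT and at 11.2, 10.1 and 5.46 in KO. Cd3e was at 46.5, 50.1 and 48.6 CPM per kilobase in WT and at 53.6, 51.9 and 55.1 in KO. Cd3e itself was at 190, 204 and 198 CPM in WT and higher, at 219, 212 and 225 CPM, in KO, without overlap.

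Pax5, the factor that maintains B cell identity, was the 1 defining gene whose groups did not overlap. Over the 24 B cell genes examined, KO lay below WT without overlap for 5 (20.8%) and above for 1 (4.17%). Among genes with at least 10 reads these shares were 8.16% and 6.72%. Pax5 was at 14.04, 10.7 and 19.2 CPM in WT and at 10.3, 8.42 and 3.80 CPM in KO, with an edgeR adjusted p of 0.375. Ms4a1 was at 15.1, 13.4 and 17.8 CPM in WT and at 17.2, 11.8 and 5.64 CPM in KO. The more abundant genes of the list, several of which are also used outside B cells, did not share one direction. Cd37 averaged 88.0 CPM in WT and 86.6 in KO, Swap70 45.5 and 25.7, Ralgps2 32.2 and 40.5, Pou2af1 25.6 and 21.5, Cd79a 17.4 and 13.0, and Cd72 14.5 and 18.3.

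Over the 24 B cell genes examined, which summed to between 284 and 398 CPM in WT and between 256 and 313 CPM in KO, 20 had the lower mean in KO, against 54.2% of genes with at least 10 reads. Of the 23 tested edgeR called 0, with 6 lower and 1 higher at an unadjusted p under 0.05, against 5.77% and 5.05% of all genes tested. They were led by Swap70 (log2 fold change -0.82, edgeR adjusted p = 0.330) and Ralgps2 (0.33, edgeR adjusted p = 0.377). DESeq2 called 1 of them, Swap70, lower, against 0.476% of genes, and edgeR without a filter called 4 lower, against 0.914%. The part of B-lineage cells, or of their RNA, in the V reads of this sorted population was not tested.

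**Figure D4:**
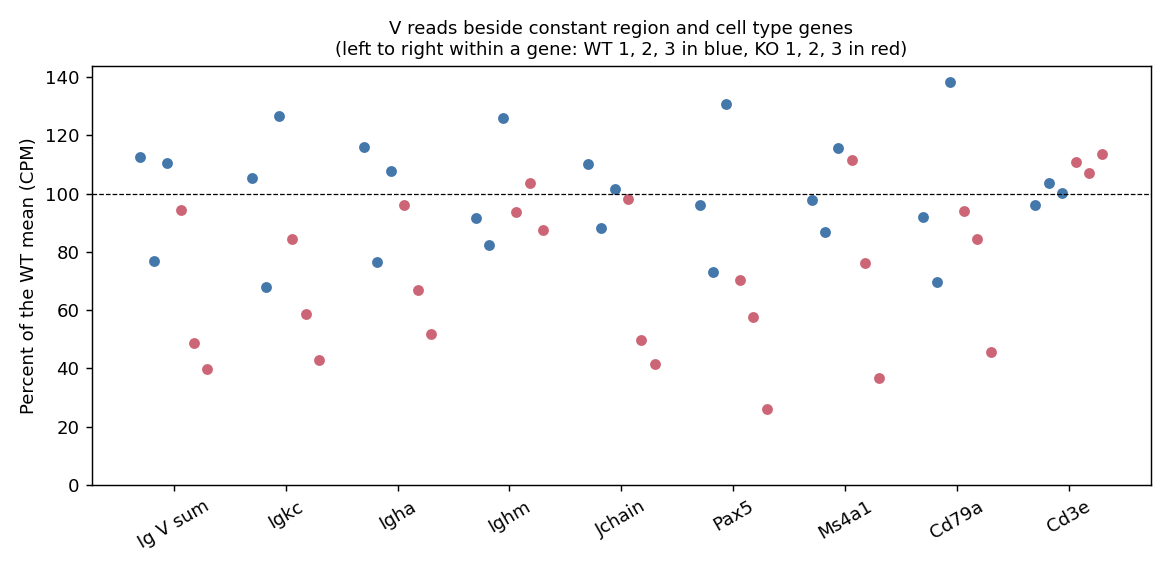
CPM of the V sum and of named constant-region, B-lineage and T cell genes in each library, as a percentage of the WT mean (y axis, dashed line at 100). Points within a gene run from WT 1 to WT 3 (blue) and KO 1 to KO 3 (red), and KO 3 is the lowest point for the V sum, Igkc, Igha, Jchain, Pax5, Ms4a1 and Cd79a but not for Ighm or Cd3e.

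Genes outside the B cell and plasma cell lists also differed between libraries. The 10 myeloid genes summed to 21.6, 9.84 and 32.7 CPM in WT and to 6.84, 13.4 and 13.8 CPM in KO. All 10 had the lower mean in KO, against 54.2% of genes with at least 10 reads. Flt3 (mean 9.43 CPM in WT and 5.43 CPM in KO) and Itgax (5.51 and 2.65 CPM) made up most of these myeloid sums. The sums averaged 21.4 CPM in WT and 11.4 CPM in KO. The defining genes were low: Lyz2 averaged 0.221 and 0.186 CPM, Csf1r 0.457 and 0.0919 CPM, and Adgre1 1.54 and 0.709 CPM. Lyz2 was at 0 in KO 3. The 7 genes of MHC class II presentation belong to a pathway that B cells also use. They summed to 270, 158 and 284 CPM in WT and to 150, 205 and 176 CPM in KO. In both lists KO 1, with the most V reads in its group, was the lowest library. Both sums thus did not follow the V sum within KO. The KO to WT ratio of group means was 0.531 for the myeloid and 0.747 for the MHC class II sum. For the V sum it was 0.609. Cd4 averaged 3.70 CPM in WT and 1.80 CPM in KO. The 3 NK cell genes summed to 5.86, 6.70 and 5.05 CPM in WT and to 2.25, 3.78 and 4.41 CPM in KO. These NK sums did not overlap and came nearly all from Klrb1c, with KO 1 again the lowest. The KO to WT ratio of group means was 0.605 for the CD4 T cell and 0.593 for the NK cell sum. It was 0.940 for the sum of the 5 erythroid genes. Of these lists edgeR called 0 genes. Without a filter edgeR called 3 myeloid, 3 MHC class II and 2 CD4 T cell genes lower, against 0.914% of genes. It called 0 NK cell and 0 erythroid genes. Of 8 genes of early B cells, several of which T cells also use, 4 had the lower mean in KO and 2, Vpreb2 and Rag2, had no read. The surrogate light chain genes Igll1 and Vpreb1 averaged 0.0540 and 0.133 CPM in WT and 0.0214 and 0.181 CPM in KO. Dntt, which adds bases at the joints of rearranging receptor genes, averaged 1.504 CPM in WT and 2.90 CPM in KO, without overlap, and its edgeR adjusted p was 0.345. The part of the cells that carry these transcripts in the results on V reads was not tested.

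The T cell's own receptor V segments showed another pattern. The 101 alpha and beta V segments with at least 10 reads summed to 360, 391 and 340 CPM in WT and to 417, 361 and 380 CPM in KO, with a mean of 364 ± 25.4 CPM in WT and 386 ± 28.5 CPM in KO (mean ± SD of 3 libraries), and the groups overlapped. Their mean was lower in KO for 32 of 101 (31.7%), against 54.2% of genes with at least 10 reads. Their median log2 ratio was 0.089. KO lay above WT without overlap for 10 (9.90%) and below for 3 (2.97%), against 6.72% and 8.16% of those genes. Of the 82 tested edgeR called 0, with 2 higher and 0 lower at an unadjusted p under 0.05, against 5.05% and 5.77%. Without a filter edgeR called 4 higher and 0 lower, against 0.842% and 0.914% of genes. There were 2.19, 3.47 and 2.11 receptor V reads for each immunoglobulin V read across WT 1 to 3, and 3.03, 5.07 and 6.55 across KO 1 to 3, so KO 1 again lay within the WT range.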

How the data were processed

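Per the labels' protocols, Trizol was used for RNA extraction and a Vazyme kit for mRNA libraries. The authors deposited 1 table of raw read counts, whole numbers for each Ensembl gene in 6 libraries. The submitters' processing notes name GRCm39, HISAT2, Subread and featureCounts. Not given in the sources used here are tool versions, annotation release, read length, strand setting and how multi-mapped reads were handled, so overlapping, antisense and near-identical genes cannot be told apart with certainty.

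Of 57010 identifiers 52029 took a symbol by exact match to GENCODE M21 (GRCm38), which also gave exon lengths, biotypes and transcript sequences. The counts use another build, and coordinates are left out for that reason. A V segment without a symbol there would be missed. Of the 167 members, 1 (Ighv1-57) is annotated as a pseudogene.

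R 4.3.3, edgeR 4.0.16 and DESeq2 1.42.0 were used. Genes passed filterByExpr (minimum count 10, minimum total 15), TMM scaled the libraries, and edgeR's quasi-likelihood test (two-sided) contrasted KO and WT with Benjamini-Hochberg adjustment over 16439 genes and a threshold of 0.05. The procedure was tested on simulated counts, with changes placed only in the more abundant genes and the same dispersion for all genes. That simulation thus does not cover V segments of low count or wide spread between replicates. A count of 0 allows 3 counts, between 0.0871 and 0.115 CPM by library. This allowance and all exact counting intervals take each count as an independent draw, which was not tested. Some genes of low count had even counts alone, such as S100a8 (6, 0 and 16 in WT and 12, 10 and 0 in KO). An exact permutation test of 3 against 3 cannot go below p = 0.1. No replicate pair agreed within sampling noise (chi-square per gene from 16 to 40.4 over 12177 genes).

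The members and lists were chosen with earlier results of these data known. Named segments are the 5 heavy, 5 kappa and both lambda members with most reads, the 3 of smallest p in each direction, the 3 with at least 50 reads most concentrated in 1 library, and those at the edge of the rule. 1 further B cell gene was left out of the 24 examined and is not reported here. Alternatives were library size as the only scaling, DESeq2, no filter, a replicate block, other read minimums, no pseudogenes, thinning, and leaving out each replicate.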

Additional observations from a re-analysis of the deposited data

How the results depend on the processing

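The lower V sum in KO kept its direction under all 11 alternatives, with log2 ratios from -1.18 (without KO 1) to -0.48 (without KO 3), -0.79 when scaled by library size alone and -0.69 by DESeq2 size factors. Chain shares moved by less than the SD between replicates in all but 1 of 36 alternatives: with members of at least 50 reads heavy segments took 42.0% in WT. The WT mean of members detected, 150.7, became 142 after thinning and 144 with at least 2 reads.

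The count of called V segments, 0 by edgeR, became 19 without a filter on low counts and 1 with DESeq2, and the count over all genes, 2, became 511 and 147; the cause was not tested. With 1 library left out the V segments called ran from 0 to 1 (Igkv6-13, without KO 3) and all genes called from 2 to 80 (without KO 3). Among named segments Ighv1-76 (log2 fold change 0.47) ran from -0.32 without KO 1 to 0.97 without WT 2, and Igkv8-30 (0.13) ran from -0.73 without KO 1 to 0.46 without KO 2, with -0.024 without WT 2 and -0.086 with the replicate block. Igkv1-110 (adjusted p = 0.00535) and Igkv10-96 (0.0211) passed edgeR without a filter.

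Replicate numbers are shared by WT and KO, but deviations of same-numbered libraries did not go together (correlations of -0.00567, -0.189 and -0.0474), so the numbers were not taken as pairs. With the replicate number as a block edgeR called 0 V segments and 2 genes. With 10 to 949 reads per segment over 6 libraries, differences between single segments are limited by depth as well as by the spread between replicates.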
